A study of Mus musculus with 2 samples.

Results

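The BMP ligands and BMP antagonists described here are 10 genes, picked by symbol from the 32285 mouse genes that were counted. The ligand genes are 7 in number, Bmp2, Bmp3, Bmp4, Bmp5, Bmp6, Bmp7, and Gdf10, and the antagonist genes are 3, Grem1, Nog, and Chrdl1. Their unique molecular identifiers (UMIs, which mark single captured transcripts) were read in all barcodes with at least 500 genes, at least 500 UMIs, and at most 10% mitochondrial UMIs, and their sources were compared across stromal cell classes. Bone morphogenetic proteins (BMPs) are secreted dimers that bring type I and type II receptor kinases together, and the activated receptors pass the signal on through SMAD1, SMAD5, and SMAD9 to target genes such as the Id family. They are named for their power to induce bone, and BMP2 is known to be needed for fracture repair, to which the periosteum, the cell layer that wraps the bone, contributes cells. Gremlin 1 (Grem1), noggin (Nog), and chordin-like 1 (Chrdl1) are secreted proteins that bind BMPs and keep them from their receptors.

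The cells came from the periosteum of femurs and tibias of WT C57BL6 mice, 4 weeks old, and were sorted by FACS on CD45, CD31, Ter119, and DAPI to leave out blood, endothelial, erythroid, and dead cells. They were measured by 10x scRNA-Seq with a 3′ kit in 2 libraries, labelled replicate 1 and replicate 2, with no treated group. How many mice each library pooled is not given in the sources used here, so the p-values measure only the spread between these 2 libraries. The question asked of the data was which stromal classes held transcripts of each ligand and each antagonist.

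Library 1 held 9932 barcodes, of which 6276 were kept with a median of 8164 UMIs, and library 2 held 3659, of which 2893 were kept with a median of 6279 UMIs. The kept cells shared 7 barcodes between the libraries. Despite the gate, 92.9% of kept cells in library 1 (95% binomial interval, 92.2% to 93.5%) and 61.3% in library 2 (59.4% to 63.0%) fell into clusters with hematopoietic markers. They were set aside, which left 445 stromal cells in library 1 and 1121 in library 2. Although the label of both libraries is WT, the reporter EGFP had 6837 UMIs in library 2 and 0 in library 1, and tdTomato had UMIs in both. Erythroid marker genes ran from 1080 to 29612 CPM (counts of a gene per 1000000 counts of the sum) over the classes of library 1 and from 114 to 4599 CPM over those of library 2, and their part in the results was not tested.

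The stromal cells formed 15 clusters, which were grouped into classes by marker genes without any gene of the BMP pathway. Of these classes 7 had 10 or more cells in both libraries and were tested, and the numbers that follow are cells in library 1 and in library 2. P-SSC-like cells, named after periosteal skeletal stem cells and marked by genes such as Pi16, Cd34, and Clec3b, numbered 37 and 296. Lepr+ stromal-like cells, which carry the marrow stroma genes Lepr, Adipoq, and Cxcl12, numbered 70 and 38, osteoblast-like cells 109 and 214, and chondrocyte-like cells 27 and 121. The study that reported the data named mouse P-SSC clusters by Prx1, and named a Lepr+ P-SSC cluster as well. Prx1 was not among the markers used here, so P-SSC-like and Lepr+ stromal-like cells are not set equal to those clusters. The other 3 classes are called by their leading gene: Col10a1-led cells (68 and 73), Tcim-led cells (16 and 48), and Gm26917-led cells (32 and 49). Clustered among stromal cells alone, they did not meet the naming rule for any type. Before hematopoietic cells were set aside, a cluster led by Col10a1 (70 and 72 cells) had met it as chondrocyte-like, with 10 of 13 markers. Col10a1, from the list for hypertrophic chondrocytes, stood at 81579 and 45233 CPM in Col10a1-led and 28491 and 19762 CPM in Tcim-led cells. In chondrocyte-like cells it had 954 and 744 CPM. Tcim-led cells had 2 of the 7 markers of that list. The Gm26917-led class also held endothelial marker transcripts, at 645 CPM in library 1 and 712 CPM in library 2 against at most 23.2 CPM in any other class of the tests, and skeletal muscle markers at 1565 and 230 CPM, against up to 3548 CPM elsewhere, in P-SSC-like cells of library 1. Its Schwann cell markers stood at 16.8 CPM in library 1 and 2021 CPM in library 2, against at most 654 CPM in any other class of the tests, and their part in its values was not tested. Cytl1-led cells (74 in library 2, none in library 1), tenocyte-like cells (2 and 98), and smooth muscle-like cells (4 and 21) were described without a test.

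Promoter sequence was at hand in RefSeq (GRCm38.p6) for 5 of the 10 genes. Shown here are the 250 bases before the start of Grem1, Bmp4, and Bmp5, a BMP antagonist and a pair of BMP ligands that all had their highest mean level in Lepr+ stromal-like cells. The Grem1 window lies at chr2:113758649-113758898 on the minus strand, the Bmp4 window at chr14:46390670-46390919 on the minus strand, and the Bmp5 window at chr9:75775115-75775364 on the plus strand, each written 5′ to 3′. Capitals mark matches to the GC box GGGCGG and to GGCGCC, a GC-rich motif bound by SMAD1 and SMAD5.
Grem1: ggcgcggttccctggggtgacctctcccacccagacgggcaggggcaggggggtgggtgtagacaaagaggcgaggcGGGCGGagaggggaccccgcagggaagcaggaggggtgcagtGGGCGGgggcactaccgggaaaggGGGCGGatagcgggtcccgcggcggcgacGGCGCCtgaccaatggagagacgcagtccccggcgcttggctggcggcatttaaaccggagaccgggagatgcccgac
Bmp4: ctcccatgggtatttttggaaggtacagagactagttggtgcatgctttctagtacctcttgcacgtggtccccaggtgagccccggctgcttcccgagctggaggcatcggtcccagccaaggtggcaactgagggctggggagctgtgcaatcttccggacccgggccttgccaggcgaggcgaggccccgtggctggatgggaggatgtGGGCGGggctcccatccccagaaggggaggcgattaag
Bmp5: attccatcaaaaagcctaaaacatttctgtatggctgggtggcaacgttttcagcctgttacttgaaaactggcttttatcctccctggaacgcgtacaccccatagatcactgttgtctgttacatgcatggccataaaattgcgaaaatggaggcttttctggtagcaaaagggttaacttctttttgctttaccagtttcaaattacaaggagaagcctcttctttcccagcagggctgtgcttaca
The Grem1 window held 3 matches to GGGCGG and 1 to GGCGCC, the Bmp4 window held 1 to GGGCGG, and the Bmp5 window held neither. Read on both strands, GGGCGG occurs in 32.7% and GGCGCC in 9.59% of 32851 promoter windows of this length. The TATA box TATAAA (12.4% of windows) was found in none of the 5 windows. The windows also differed in base composition, with 72.0% G or C in Grem1, 63.2% in Bmp4, and 42.8% in Bmp5. A match describes the letters in the window and is not evidence of binding.

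UMIs were summed per class and library, and each class was compared with the mean of the other 6 on the log2 scale with the quasi-likelihood test of edgeR, and p-values were adjusted by the Benjamini-Hochberg method over all 9379 genes tested. All 10 members passed the filter on low counts. Ligand and antagonist transcripts lay together in Lepr+ stromal-like and chondrocyte-like cells, whereas osteoblast-like cells held ligands and hardly any Grem1, Nog, or Chrdl1. In Lepr+ stromal-like cells, 5 members were higher (11.7% of all genes tested were) and 1 was lower (3.65% of all genes). In chondrocyte-like cells, 4 members were higher (11.5% of all genes) and 1 was lower (6.05%). Osteoblast-like cells had 3 members higher (9.29%) and 3 lower (3.64%), and P-SSC-like cells had 3 higher (12.8%) and 0 lower (3.07%). Tcim-led cells had 2 members higher (10.4%) and 2 lower (7.43%). With 10 members, none of these counts was tested against the share over all genes. Col10a1-led cells had 1 higher (15.3%) and 1 lower (14.4%), and Gm26917-led cells had 0 higher (7.98%) and 1 lower (2.18%). For the 0 of Gm26917-led cells, 2 members were higher at an unadjusted p under 0.05, and DESeq2 called 0. In that comparison 2349 of the 9379 genes differed at that unadjusted p, in either direction. For the 0 of P-SSC-like cells, no member was lower at that unadjusted p, and DESeq2 called 0. For 0 of the 10 members did the class with the highest mean level differ from the next after adjustment, by edgeR or by DESeq2. At an unadjusted p under 0.05, 2 differed, Bmp4 and Bmp5, both between Lepr+ stromal-like and P-SSC-like cells. In that pair 1642 of the 9379 genes differed at that p, in either direction.

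**Figure D1:**
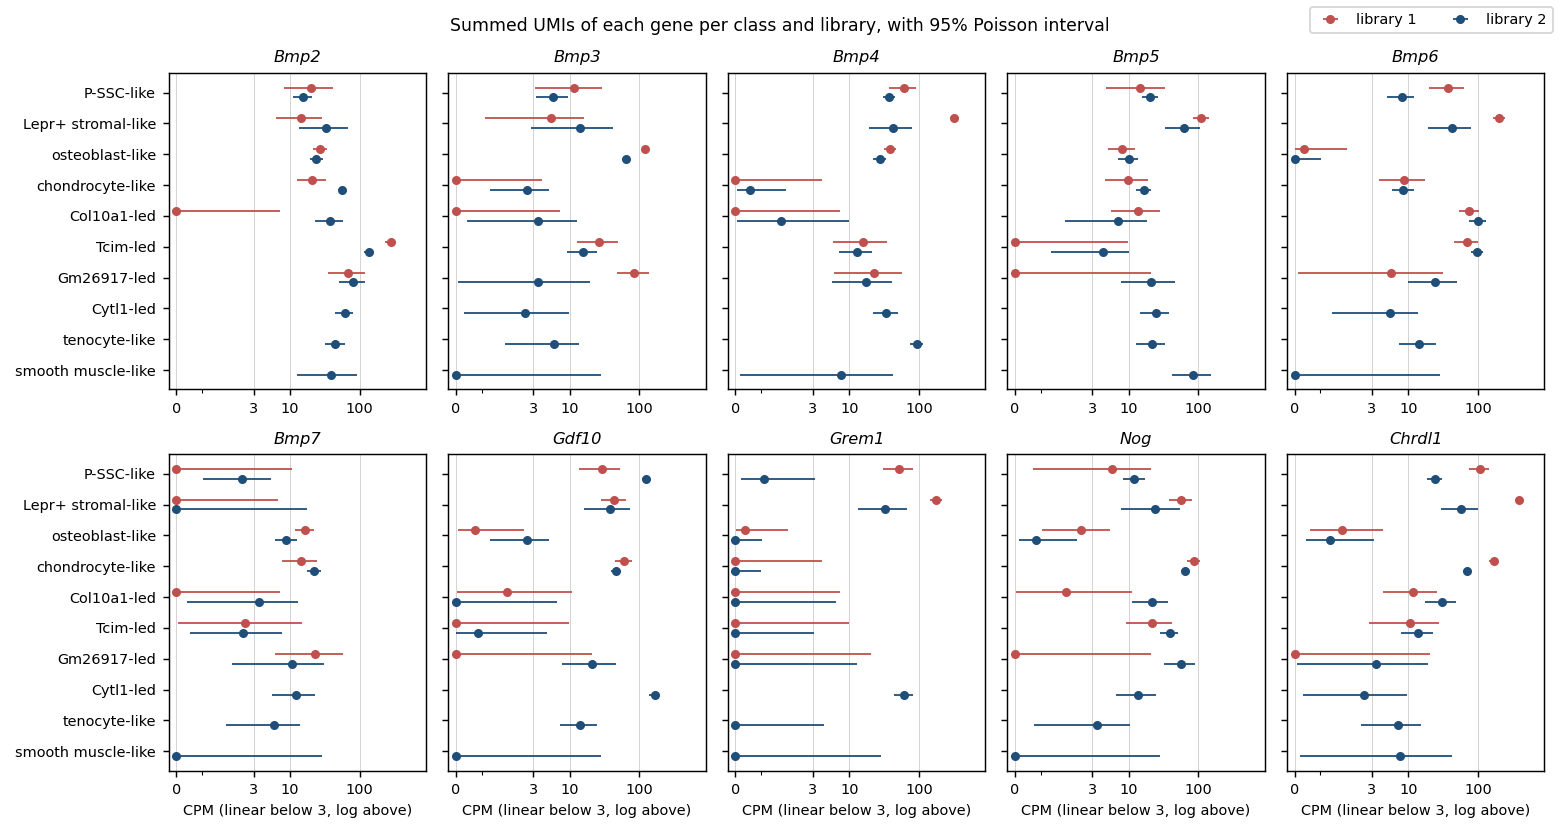
Level of each gene in each class as CPM of the summed UMIs (x axis, linear below 3 and logarithmic above), with 1 point per library (red, library 1; blue, library 2) and bars for the 95% Poisson interval, for the 7 classes of the tests and 3 further classes with at least 10 cells in library 2. Among the classes drawn, Bmp3 stands highest in osteoblast-like cells of both libraries, Nog in chondrocyte-like cells, and Bmp2 in Tcim-led cells, while most Lepr+ stromal-like points of library 1 lie to the right of those of library 2.

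Bmp2, an osteogenic ligand, was highest in Tcim-led cells among the classes of the tests. It stood there at 277 CPM in library 1 (95% Poisson interval, 226 to 336; 104 UMIs in 16 cells) and at 136 CPM in library 2 (116 to 159; 159 UMIs in 48 cells). Both values lay above those of every other class in the tests, the next being Gm26917-led cells at 67.3 and 80.3 CPM. Against the mean of the other classes Bmp2 was higher by 2.33 on the log2 scale (SE 0.52, adjusted p = 0.00956 by edgeR), with 4.27 in library 1 alone and 1.48 in library 2 alone. The order of the first 2 classes was not resolved, since Tcim-led exceeded Gm26917-led cells by 1.38 (SE 0.82, adjusted p = 0.361 by edgeR; 6.26% of all genes were called between these classes). A few cells carried much of the signal: 1 Tcim-led cell held 33 of the 104 UMIs in library 1, and 1 held 49 of the 159 in library 2. Of the 48 Tcim-led cells of library 2, 17 had no EGFP UMI, and in those Bmp2 stood at 64.7 CPM. Outside the tests, B cell marker-bearing cells of library 1 had 346 CPM of Bmp2, from 45 UMIs in 11 cells, of which 44 lay in 1 cell. They held 16.7% of the stromal Bmp2 UMIs of that library, and those of library 2 had 26.1 CPM. Bmp2 was spread wide at lower levels, at 20.9 and 56.1 CPM in chondrocyte-like, 26.9 and 23.8 CPM in osteoblast-like, and 20.1 and 15.3 CPM in P-SSC-like cells.

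Bmp3, a ligand known to oppose the osteogenic BMPs, was an osteoblast-like transcript. Library 1 had 121 CPM (108 to 135) and library 2 had 64.7 CPM (56.6 to 73.5), and 67.9% and 51.9% of osteoblast-like cells had a UMI. In B cell-like cells, which serve as a measure of free RNA, 1 of 2675 cells in library 1 and 0 of 1337 in library 2 had one. Depth was unlike, with medians of 27247 and 14898 UMIs in osteoblast-like and 3849 and 4004 in B cell-like cells. Osteoblast-like cells held 89.9% of the stromal Bmp3 UMIs of library 1 (86.3% to 92.8%) and 77.2% of those of library 2 (72.1% to 81.8%). The difference from the mean of the other classes was 3.94 (SE 0.57, adjusted p = 0.000289 by edgeR), 5.50 in library 1 alone and 3.76 in library 2 alone. Gm26917-led cells had 84.1 CPM in library 1, above the osteoblast-like value of library 2, and 3.49 CPM in library 2. Osteoblast-like exceeded Gm26917-led cells by 1.89 (SE 0.93), which was not called (adjusted p = 0.211 by edgeR, and 0.0469 without the filter on low counts; 12.3% of all genes were called in that pair). Within the osteoblast-like class, the 3 clusters each carried Bmp3, at 99.7 and 60.9 CPM in the cluster led by Ifitm5, 185 and 104 CPM in that led by Bglap3, and 135 and 59.0 CPM in that led by Gal.

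Bmp4, a ligand close in sequence to Bmp2, had its highest mean level in Lepr+ stromal-like cells, but the libraries were far apart. It stood at 324 CPM in library 1 (278 to 375; 179 UMIs in 70 cells) and at 42.4 CPM in library 2 (19.4 to 80.4; 9 UMIs in 38 cells). P-SSC-like cells had 60.2 and 37.8 CPM and osteoblast-like cells 39.0 and 27.4 CPM, so the Lepr+ value of library 2 lay among those of other classes. A UMI was found in 52.9% and 13.2% of Lepr+ cells, against 0.187% and 1.42% of B cell-like cells. In library 2, B cell-like cells held 19 UMIs of Bmp4 and 1 of Bmp2, while stromal cells held 343 and 637. Whether the 1.42% is free RNA was not tested. In chondrocyte-like cells Bmp4 had 0 and 2 UMIs, and in Col10a1-led cells 0 and 1. Relative to the mean of the other logs, Bmp4 was higher in Lepr+ stromal-like (4.04, SE 0.46, adjusted p = 2.7e-05 by edgeR), P-SSC-like (2.09, SE 0.52, adjusted p = 0.0100), and osteoblast-like cells (2.03, SE 0.50, adjusted p = 0.0119). It was lower in chondrocyte-like (adjusted p = 0.00146 by edgeR) and Col10a1-led cells (adjusted p = 0.0408). Because the near-zero classes pull the mean of logs down, the osteoblast-like call stands beside an arithmetic mean of 33.2 CPM in those cells and 44.6 CPM in the others. For the P-SSC-like call the arithmetic means were 49.0 CPM in those cells and 42.0 CPM in the others. The Lepr+ difference was 5.57 in library 1 alone and 1.96 in library 2 alone. Lepr+ exceeded P-SSC-like cells by 1.67 (SE 0.68, adjusted p = 0.201 by edgeR; 5.08% of all genes were called in that pair), and in library 2 alone the sign turned, at -0.15. With the 4 named classes alone in the model, the P-SSC-like and osteoblast-like calls were lost (adjusted p = 0.155 and 0.173), and the Col10a1-led call was lost in 4 of 10 alternatives (adjusted p = 0.110 with DESeq2). Tenocyte-like cells, with cells enough in library 2 only, had 93.1 CPM (73.7 to 116).

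Bmp5, of the same subfamily as Bmp6 and Bmp7, was the ligand for which the Lepr+ values of both libraries lay above every other class in the tests. Lepr+ stromal-like cells had 110 CPM in library 1 (84.4 to 142) and 61.2 CPM in library 2 (32.6 to 105), and 52.9% and 26.3% of them had a UMI, against 0 of 2675 and 0 of 1337 B cell-like cells. The other classes ranged from 0 to 20.9 CPM. The difference from their mean was 2.61 (SE 0.53, adjusted p = 0.00438 by edgeR), 4.59 in library 1 alone and 1.98 in library 2 alone. Against P-SSC-like cells, next in order at 14.3 and 20.4 CPM, it was 1.95 (SE 0.79) and was not called (adjusted p = 0.204 by edgeR). The 5 UMIs behind the P-SSC-like value of library 1 all lay in cells that also had an Adipoq UMI. Tcim-led cells were lower, with 0 and 5 UMIs (adjusted p = 0.0291 by edgeR, and 0.0613 once P-SSC-like cells with an Adipoq UMI were left out). Smooth muscle-like cells of library 2 had 84.9 CPM, from 11 UMIs in 8 of 21 cells, with a wide interval of 42.4 to 152.

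Bmp6, known for its part in iron homeostasis as well as in bone, was carried by Lepr+ stromal-like, Col10a1-led, and Tcim-led cells. The levels in libraries 1 and 2 were 203 and 42.4 CPM in Lepr+ stromal-like, 74.7 and 99.3 CPM in Col10a1-led, and 69.2 and 97.8 CPM in Tcim-led cells. All 3 classes were higher than the mean of the others, by 2.72 (SE 0.51, adjusted p = 0.00198 by edgeR), 3.71 (SE 0.50, adjusted p = 0.000153), and 2.10 (SE 0.51, adjusted p = 0.0130). In arithmetic mean CPM, which near-zero classes pull down less, the ratios to the others were 3.39, 2.07, and 1.96. Lepr+ and Col10a1-led cells were not told apart, although 32.6% of all genes were called in that pair (difference -0.85, SE 0.73, adjusted p = 0.385 by edgeR). The sign is opposite to the order of mean CPM, 122 in Lepr+ and 87.0 in Col10a1-led cells. The fit uses normalization factors and a log scale, and mean CPM uses neither. Single libraries gave 3.38 and 1.64 in Lepr+, 3.66 and 4.28 in Col10a1-led, and 1.58 and 3.02 in Tcim-led cells. Osteoblast-like cells all but lacked Bmp6, with 1 UMI in 109 cells of library 1 and 0 in 214 cells of library 2, although their median depth was 27247 and 14898 UMIs. Both values lay under those of every other class in the tests (adjusted p = 0.000429 by edgeR). A count of 0 in 214 cells allows a share of cells with a UMI of up to 1.40%. With skeletal muscle-like cells added to the comparison as a further class, which held at most 1 UMI of any member in either library, the lower calls of Bmp6 and Chrdl1 in osteoblast-like, Bmp4 in chondrocyte-like and Col10a1-led, Bmp5 in Tcim-led, Bmp7 in Lepr+, and Chrdl1 in Gm26917-led cells were lost.

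Bmp7, a ligand known from kidney and skeletal development, was low everywhere and had its highest mean level in chondrocyte-like cells. They had 14.3 CPM (7.61 to 24.5) and 22.2 CPM (17.6 to 27.6), osteoblast-like cells 16.2 and 8.84 CPM, and Gm26917-led cells 22.4 and 10.5 CPM from 4 and 3 UMIs. The values of these 3 classes overlapped. Chondrocyte-like cells were higher than the mean of the others by 3.09 (SE 0.59, adjusted p = 0.00205 by edgeR) and osteoblast-like cells by 2.50 (SE 0.61, adjusted p = 0.0126). In arithmetic mean CPM the ratios to the others were 3.16 and 1.86. DESeq2 gave an adjusted p of 0.0736 for the osteoblast-like difference and a finer clustering 0.0724. That difference was 4.09 in library 1 alone and 1.95 in library 2 alone. Chondrocyte-like and Gm26917-led cells were not told apart (0.84, SE 0.82, adjusted p = 0.507 by edgeR; 20.0% of all genes were called in that pair), and in library 1 alone the difference was -0.027. Lepr+ stromal-like cells had 0 Bmp7 UMIs in 70 and in 38 cells, which allows shares of cells with a UMI of up to 4.29% and 7.89%. At median depths of 7786 and 3739 UMIs this limits detection and not expression. Set against 3 counts over the 2 libraries, the mean of the other classes was at least 2.25-fold higher (adjusted p = 0.0451 by edgeR, and 0.124 by DESeq2), a call that 4 of 9 alternatives lost.

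Gdf10, also called BMP3B and the nearest relative of Bmp3, had its highest mean levels in P-SSC-like and chondrocyte-like cells among the tested classes. The P-SSC-like class had 28.7 CPM in library 1 (10 UMIs, 8 of them in 1 cell) and 123 CPM in library 2 (337 UMIs in 83 of 296 cells). Chondrocyte-like cells had 59.4 and 46.3 CPM, with a UMI in 74.1% and 54.5% of cells. The P-SSC-like libraries thus lay below and above the chondrocyte-like ones. The differences from the mean of the others were 3.63 (SE 0.58, adjusted p = 0.00034 by edgeR) and 3.31 (SE 0.60, adjusted p = 0.00109), and single libraries gave 3.18 and 4.82 for P-SSC-like and 4.97 and 3.53 for chondrocyte-like cells. In arithmetic mean CPM the ratios to the others were 4.24 for P-SSC-like and 2.44 for chondrocyte-like cells. Between these classes the difference was 0.27 (SE 0.79, adjusted p = 0.856 by edgeR; 21.4% of all genes were called in that pair), with -1.54 in library 1 alone. Without integration of the libraries the sign turned and passed the test, at -2.11 (adjusted p = 0.0343 by edgeR). The P-SSC-like class then held 19 and 166 cells of a cluster led by Pi16, and Mfap4 was among the leading genes of tenocyte-like cells. That comparison is thus not of the same cells. Tcim-led cells were lower, with 0 and 1 UMI (adjusted p = 0.0242 by edgeR), which was lost at a coarser clustering (0.0858) and without integration (1.00). The highest level of library 2 was in the untested Cytl1-led cells, at 167 CPM (139 to 199), and Lepr+ stromal-like cells had 43.4 and 37.7 CPM. In library 1 the Lepr+ value lay above the P-SSC-like one. P-SSC-like and Lepr+ stromal-like cells were not told apart (1.29, SE 0.85, adjusted p = 0.462 by edgeR).

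**Figure D2:**
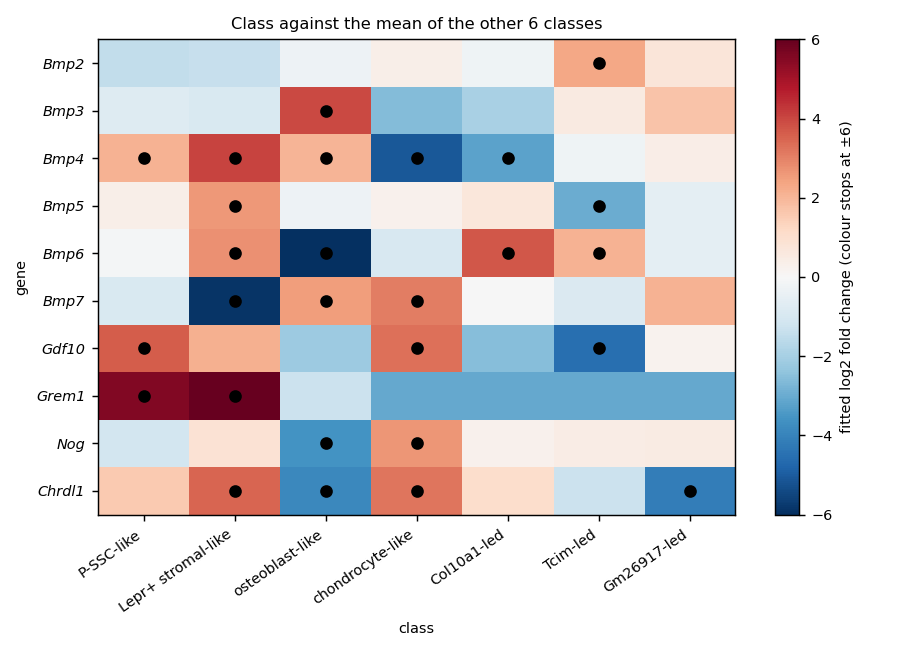
Fitted log2 fold change of each gene (y axis) in each class (x axis) against the mean of the other 6 classes, in colour that stops at ±6, with a black dot where the adjusted p is under 0.05. Bmp4, Bmp5, Bmp6, Grem1, and Chrdl1 are higher in Lepr+ stromal-like cells, and Bmp6, Nog, and Chrdl1 are lower in osteoblast-like cells.

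Grem1 came from few classes. Lepr+ stromal-like cells had 179 CPM in library 1 (146 to 218; 99 UMIs in 30 of 70 cells) and 33.0 CPM in library 2 (13.3 to 67.9; 7 UMIs in 5 of 38 cells). P-SSC-like cells had 51.6 CPM (18 UMIs) and 1.09 CPM (3 UMIs), osteoblast-like cells 1 and 0 UMIs, and the other 4 classes of the tests 0 UMIs in both libraries. Grem1 was higher in Lepr+ stromal-like than in the mean of the other classes (adjusted p = 0.000672 by edgeR), and also in P-SSC-like cells (adjusted p = 0.0219). No fold is given because most of the classes were at 0. DESeq2 called neither, with adjusted p-values of 0.332 and 0.595.

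The P-SSC-like call for Grem1 rested on cells that also carried Adipoq, a defining gene of the Lepr+ class. In library 1, 11 of the 37 P-SSC-like cells had an Adipoq UMI, and in library 2, 0 of 296 did. Without those cells, P-SSC-like cells had 0 Grem1 UMIs in library 1 and 1.09 CPM in library 2, and the difference was no longer called (adjusted p = 0.408 by edgeR). Lepr+ stromal-like cells were then higher than P-SSC-like cells (adjusted p = 0.00590 by edgeR), where with all cells the difference was 2.16 (SE 1.26, adjusted p = 0.418). Cells with an Adipoq UMI were left out of the P-SSC-like class alone and stayed in the Lepr+ class. The step thus removed the Grem1-bearing cells from 1 side, and the lower p-value is not independent support for the difference. The same step, added after seeing the data, left Gdf10 at 36.4 CPM and Bmp4 at 50.9 CPM in P-SSC-like cells of library 1, with both calls kept, and took Chrdl1 there from 106 to 58.2 CPM. Bmp5 there went from 5 UMIs to 0, and Bmp6 from 13 UMIs to 3. In library 2 Grem1 had another source: Cytl1-led cells held 45 of its 55 stromal UMIs at 60.6 CPM (44.2 to 81.1), 21 of them in 1 cell, whereas in library 1 Lepr+ stromal-like cells held 82.5% (74.5% to 88.8%).

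Nog, which binds BMP2 and BMP4 tightly, was highest in chondrocyte-like cells in both libraries. They had 85.8 CPM (67.8 to 107) and 63.2 CPM (55.4 to 71.9), with a UMI in 81.5% and 52.1% of cells against 0.0374% and 0.0748% of B cell-like cells. Chondrocyte-like cells had median depths of 34081 and 30324 UMIs and B cell-like cells 3849 and 4004, and after thinning to 1000 UMIs per cell the chondrocyte-like shares were 7.49% and 5.12%. Both levels lay above those of all other classes in the tests, the nearest being Lepr+ stromal-like cells at 56.1 and 23.5 CPM and Gm26917-led cells at 0 and 55.9 CPM. Nog was higher than in the mean of the others by 2.64 (SE 0.56, adjusted p = 0.00535 by edgeR), 4.47 in library 1 alone and 2.34 in library 2 alone. In the 90 chondrocyte-like cells of library 2 without an EGFP UMI, it stood at 50.6 CPM. The difference from Lepr+ stromal-like cells, 1.50 (SE 0.88), was not called (adjusted p = 0.236 by edgeR; 24.5% of all genes were called in that pair). In Lepr+ cells of library 1, 1 cell held 20 of the 31 UMIs. Osteoblast-like cells were lower, at 2.58 and 0.829 CPM, by 3.59 on the log2 scale (SE 0.90, adjusted p = 0.0180 by edgeR), with -1.22 in library 1 alone and -4.78 in library 2 alone.

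Chrdl1 was shared by Lepr+ stromal-like and chondrocyte-like cells. Lepr+ stromal-like cells had 392 CPM (342 to 448; 217 UMIs) and 56.5 CPM (29.2 to 98.7; 12 UMIs), and chondrocyte-like cells 168 CPM (143 to 197) and 70.1 CPM (61.8 to 79.2). The Lepr+ class was the higher in library 1 and the lower in library 2. Against the mean of the others the differences were 3.50 (SE 0.51, adjusted p = 0.00027 by edgeR) and 3.19 (SE 0.51, adjusted p = 0.000541), and between the classes 0.27 (SE 0.73, adjusted p = 0.827), with -0.92 in library 2 alone. Single libraries gave 4.72 and 1.75 for the Lepr+ and 4.09 and 2.82 for the chondrocyte-like difference from the others. Osteoblast-like cells were lower, at 1.84 and 1.38 CPM (difference -3.86, SE 0.87, adjusted p = 0.00820 by edgeR), and Gm26917-led cells had 0 and 1 UMI (adjusted p = 0.0374). P-SSC-like cells, at 106 and 24.0 CPM, came next in order. The Gm26917-led call was lost in 5 of 9 alternatives, DESeq2 among them (adjusted p = 0.0828).

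**Figure D3:**
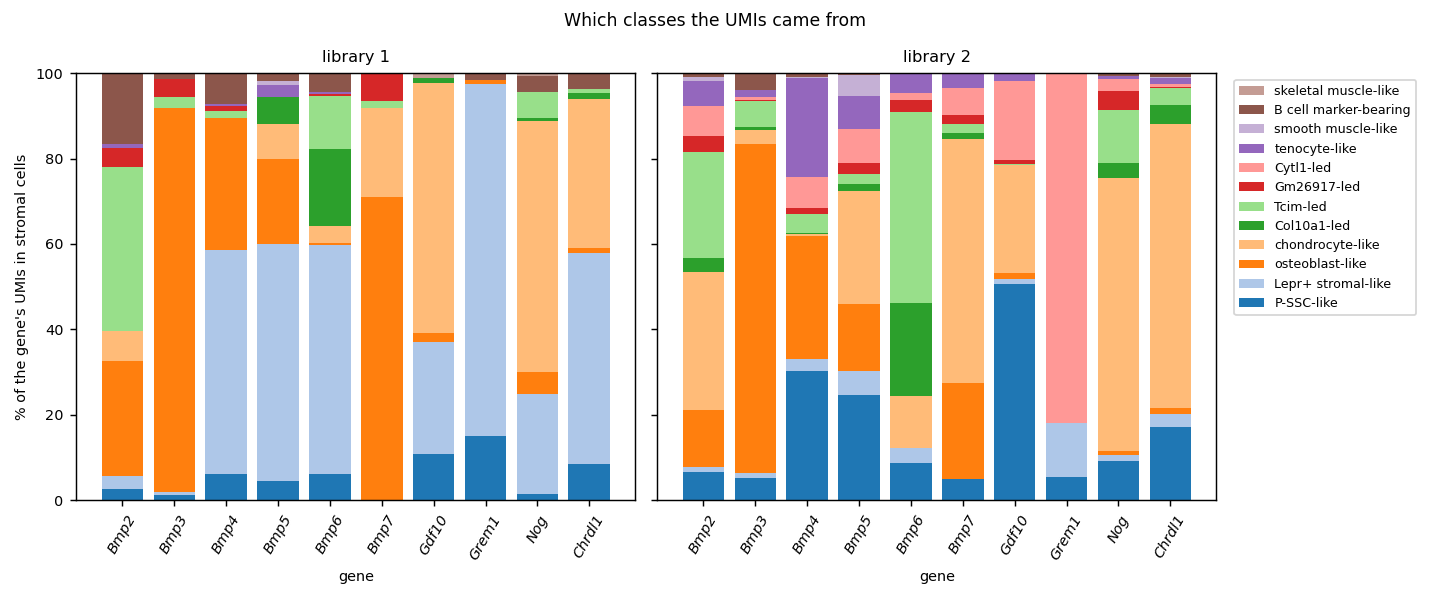
Share of each gene's stromal UMIs (y axis, in percent) that came from each class, for library 1 on the left and library 2 on the right. Osteoblast-like cells make up most of the Bmp3 bar in both libraries, while the largest part of the Grem1 bar is Lepr+ stromal-like in library 1 and Cytl1-led in library 2.

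For most members the class that held the most transcripts differed between the libraries, as did the number of cells in each class. Chondrocyte-like cells held 58.6% and 64.2% of the stromal Nog UMIs, so that Nog and Bmp3 kept 1 main source. Bmp7 came mostly from osteoblast-like cells in library 1 (71.0%, 58.0% to 81.8%) and from chondrocyte-like cells in library 2 (57.0%, 48.5% to 65.3%). Bmp4 came from Lepr+ stromal-like cells in library 1 (52.3%) and in near equal parts from P-SSC-like (30.3%) and osteoblast-like cells (28.9%) in library 2. Chrdl1 came from Lepr+ stromal-like (49.5%) and chondrocyte-like cells (34.9%) in library 1 and mainly from chondrocyte-like cells in library 2 (66.5%). Over all kept cells, stromal cells held between 89.9% and 100% of each member's UMIs in either library.

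Summing the 7 ligands and the 3 antagonists within each class gave the highest ratio in osteoblast-like cells. They had 212 CPM of ligand and 4.78 CPM of antagonist transcripts in library 1, and 137 and 2.21 CPM in library 2. The ratio of ligand to antagonist UMIs was 44.4 (95% interval from the counts, 25.8 to 83.9) and 62.1 (31.3 to 145). Chondrocyte-like cells were at the other end, with ratios of 0.446 (0.350 to 0.565) and 1.15 (1.01 to 1.30), and Lepr+ stromal-like cells had 1.12 (0.962 to 1.29) and 2.04 (1.23 to 3.48). Tcim-led cells had 12.3 and 5.16 and Col10a1-led cells 6.57 and 2.97. Gm26917-led cells had 36 ligand and 0 antagonist UMIs in library 1, which gives no ratio, and 51 and 17 UMIs in library 2. Bmp3, known to oppose the osteogenic BMPs, was counted as a ligand here. It made up 329 of the 577 ligand UMIs of osteoblast-like cells in library 1 and 234 of the 497 in library 2. For P-SSC-like cells the libraries differed, at 1.05 (0.720 to 1.54) and 5.73 (4.63 to 7.14). In library 1, 44 of their 57 antagonist UMIs lay in 14 cells of a cluster led by Mfap4, of which 71.4% had an Adipoq UMI. In library 2, Gdf10 made up 337 of their 584 ligand UMIs. Over all stromal cells the ratio was 2.10 in library 1 and 3.22 in library 2. Capture can differ between genes, so that a ratio is read across classes and not as a ratio of proteins, and the intervals cover counting error only. Other antagonists, described below, were left out of the ratio. Among them, Fstl1 stood at 58.1 and 62.2 CPM in osteoblast-like and at 4440 and 3097 CPM in P-SSC-like cells. Nbl1 stood at 51.9 and 51.4 CPM in osteoblast-like and at 700 and 1280 CPM in P-SSC-like cells. The order of the classes therefore holds for these 3 antagonists alone and with Bmp3 counted as a ligand. Ratios with Bmp3 on the side of the antagonists were not computed.

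**Figure D4:**
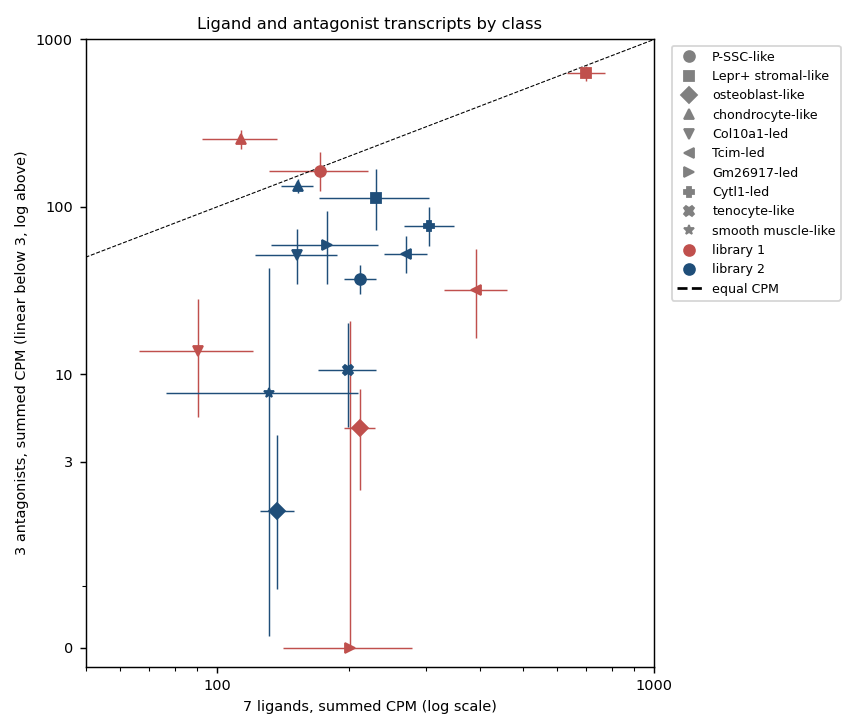
Summed CPM of the 7 ligands (x axis, log scale) against summed CPM of the 3 antagonists (y axis, linear below 3 and logarithmic above), with 1 symbol per class, red for library 1 and blue for library 2, bars for 95% Poisson intervals, and a dashed line of equal CPM. Osteoblast-like cells lie far below the line at 4.78 and 2.21 CPM of antagonist, and the chondrocyte-like cells of library 1 lie above it.

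Ligand and antagonist transcripts were also counted within single cells. A UMI of a ligand and a UMI of an antagonist were found together in 92.6% and 64.5% of chondrocyte-like cells and in 70.0% and 15.8% of Lepr+ stromal-like cells. In osteoblast-like cells they met in 2.75% and 2.34%, although 81.7% and 70.6% of these cells had a ligand UMI. The order differed from that of the ratios, since Tcim-led cells, with a high ratio, had both in 8 of 16 and 21 of 48 cells, at median depths of 22199 and 25307 UMIs. P-SSC-like cells had both in 32.4% and 13.2%. In library 1, 32 of the 37 Lepr+ cells with a Bmp4 UMI also had one of Chrdl1, and 22 also had one of Grem1. Among chondrocyte-like cells, Nog and Chrdl1 were found together in 19 of 27 cells of library 1 and in 46 of 121 cells of library 2. Depth moved with these shares, since Lepr+ stromal-like cells had a median of 7786 UMIs in library 1 and 3739 in library 2, and its part in them was not tested.

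The Lepr+ class also differed in make-up between the libraries. At a finer clustering, nearly all of it fell into a cluster led by Adipoq, with 45 cells in library 1 and 7 in library 2, and a cluster led by Mmp9, with 24 and 31, of which 1 cell of library 1 lay outside the class. Adipoq-led cells had 452 and 196 CPM of Bmp4, 262 and 196 CPM of Grem1, and 598 and 336 CPM of Chrdl1. Mmp9-led cells had 96.3 and 11.3 CPM of Bmp4, 35.5 and 0 CPM of Grem1, and 70.9 and 0 CPM of Chrdl1. For Bmp4, Grem1, Chrdl1, and also Bmp6 (296 and 196 against 76.0 and 11.3 CPM), both Adipoq-led values lay above both Mmp9-led values. Within each of the clusters, the values of these genes were also lower in library 2 than in library 1. The part of make-up in the gap between the libraries was not tested. Bmp5 was less uneven, at 125 and 84.1 CPM in Adipoq-led and 86.1 and 56.6 CPM in Mmp9-led cells, with values that overlapped. Gdf10 went the other way in level, with 31.1 and 0 CPM in Adipoq-led and 65.9 and 45.3 CPM in Mmp9-led cells. With 7 Adipoq-led cells in library 2, from 3 to 12 UMIs of each of Bmp4, Bmp5, Bmp6, Grem1, and Chrdl1 stand behind its values, and no test was run.

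Within the P-SSC-like class, Gdf10 was uneven too. The cluster led by Pi16 (23 and 187 cells) had 7.98 and 23.3 CPM of Gdf10, and the cluster led by Mfap4 (14 and 109 cells) had 81.5 and 342 CPM. Both Mfap4-led values lay above both Pi16-led values, but all Gdf10 UMIs behind the Mfap4-led value of library 1 lay in 1 of its 14 cells. The difference did not pass the test (-3.68 for Pi16-led minus Mfap4-led cells, SE 0.88, adjusted p = 0.183 by edgeR), and 1 of 9806 genes was called between these clusters. Chrdl1 stood at 35.9 and 16.4 CPM in the Pi16-led and 285 and 40.9 CPM in the Mfap4-led cluster. In library 1, 71.4% of the 14 Mfap4-led cells had an Adipoq UMI. At an unadjusted p under 0.05, 3 members differed between these clusters, and 0 were called after adjustment. How many of all genes differed at that unadjusted p was not counted for this pair. Among the osteoblast-like clusters, Bmp2 was lower in the Ifitm5-led cluster (8.41 and 7.55 CPM) than in the Bglap3-led (48.4 and 32.9 CPM) and Gal-led clusters (52.3 and 51.1 CPM) in both libraries, without a call (adjusted p = 0.154 and 0.192 by edgeR).

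**Figure D5:**
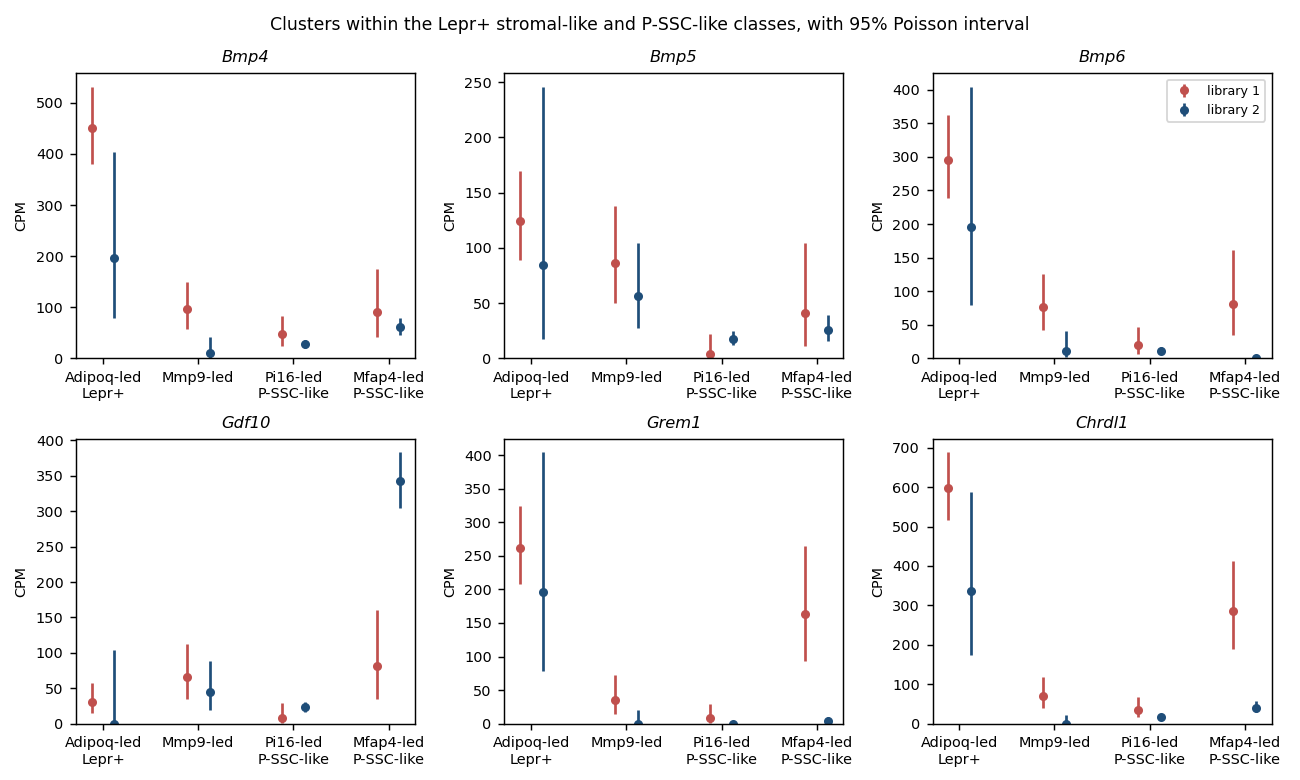
CPM (y axis, linear from 0) of Bmp4, Bmp5, Bmp6, Gdf10, Grem1, and Chrdl1 in the Adipoq-led and Mmp9-led clusters of the Lepr+ class and the Pi16-led and Mfap4-led clusters of the P-SSC-like class, with points per library (red, 1; blue, 2) and 95% Poisson intervals. Adipoq-led cells stand highest for Bmp4, Bmp6, Grem1, and Chrdl1 in both libraries, and Mfap4-led cells of library 2 stand highest for Gdf10 at 342 CPM.

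Other ligands and antagonists of the pathway had sources of their own. Of 11 other BMP and GDF ligands, 3 passed the filter, and Tcim-led cells were higher for Gdf5, a joint and cartilage ligand, at 176 and 178 CPM (6.36, SE 0.70, adjusted p = 0.000356 by edgeR). Gdf5 was also higher in Col10a1-led cells, at 3.93 and 62.1 CPM from 2 and 35 UMIs (4.95, SE 0.81). Near-zero classes pull that mean of logs down, since Lepr+ stromal-like and osteoblast-like cells had 0 Gdf5 UMIs in both libraries. In library 1 the Col10a1-led value lay below the 5.61 CPM of Gm26917-led cells. Of 16 other antagonists, 5 passed. Fst, which encodes the activin and BMP antagonist follistatin, was higher in Lepr+ stromal-like cells at 528 and 70.6 CPM (5.28, SE 0.52). Fstl1, a follistatin-like protein, was higher in both Lepr+ (2818 and 829 CPM) and P-SSC-like cells (4440 and 3097 CPM), and Nbl1, an antagonist of the DAN family to which gremlin also belongs, was higher in P-SSC-like cells (700 and 1280 CPM). Osteoblast-like cells had 58.1 and 62.2 CPM of Fstl1 and 51.9 and 51.4 CPM of Nbl1, more than of the 3 member antagonists together. P-SSC-like cells had 3 of the 5 higher (12.8% of all genes) and osteoblast-like cells 3 of the 5 lower (3.64%), with medians of 3.68 and -1.79 on the log2 scale beside 0.07 and 0.06 over all genes.

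On the receiving side, 11 of 13 receptor and co-receptor genes were tested. P-SSC-like cells had 5 higher and 1 lower (12.8% and 3.07% of all genes), among them Acvrl1, a type I receptor, which was higher at 68.8 and 54.6 CPM (4.15, SE 0.45). Bambi, a decoy receptor that dampens BMP signals, was lower in P-SSC-like cells and higher in osteoblast-like cells, at 486 and 508 CPM (2.96, SE 0.37). Lepr+ stromal-like cells had 4 receptor genes higher and 0 lower (11.7% and 3.65% of all genes), with Acvr2a at 72.3 and 14.1 CPM (2.72, SE 0.56) and Acvr2b at 19.9 and 9.42 CPM (2.87, SE 0.69). The values of library 2 rest on 3 UMIs of Acvr2a and 2 of Acvr2b. Acvr2b was also higher in Gm26917-led cells, at 39.3 and 10.5 CPM from 7 and 3 UMIs (3.61, SE 0.72). Of 8 SMAD genes and regulators, 7 were tested, and the inhibitory Smad6 was higher in Lepr+ stromal-like (81.4 and 70.6 CPM) and osteoblast-like cells (32.0 and 23.2 CPM) and lower in chondrocyte-like cells (2.20 and 2.19 CPM). The inhibitory Smad7 was higher in Tcim-led (461 and 460 CPM) and chondrocyte-like cells (129 and 216 CPM) and lower in P-SSC-like (45.9 and 39.7 CPM) and Col10a1-led cells (3.93 and 23.1 CPM).

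Genes known to respond to BMPs differed between the classes as well, with 8 of 9 tested. Lepr+ stromal-like cells had 5 of the 8 higher and 1 lower (11.7% and 3.65% of all genes), with Hey1 at 81.4 and 61.2 CPM (3.94, SE 0.47) and Id4 at 356 and 98.9 CPM (3.38, SE 0.40). In chondrocyte-like cells 2 were higher (11.5% of all genes), Id1 at 392 and 353 CPM (2.55, SE 0.27) and Id2 at 299 and 165 CPM (2.51, SE 0.40). Osteoblast-like cells had 3 higher (9.29% of all genes), with Id3 at 1378 and 1619 CPM (1.94, SE 0.37) and Dlx3 at 36.1 and 31.8 CPM, and 2 lower (3.64%), Id1 and Id4. Col10a1-led cells had 0 higher and 5 lower, where 15.3% and 14.4% of all genes were called and the median over all genes was -0.38. Of 6 proteases that process BMPs or cleave chordin, 4 were tested, and the proprotein convertase Pcsk5 was higher in osteoblast-like cells at 69.2 and 50.6 CPM (5.94, SE 0.48). Pcsk5 was also higher in P-SSC-like (14.3 and 32.7 CPM) and Lepr+ stromal-like cells (39.8 and 18.8 CPM). Pcsk6, a related convertase, was higher in Col10a1-led cells at 399 and 285 CPM (4.69, SE 0.38), in osteoblast-like cells at 256 and 150 CPM (adjusted p = 0.000506 by edgeR), and in P-SSC-like cells at 356 and 187 CPM (adjusted p = 0.000424), and had 0 UMIs in Lepr+ stromal-like cells of both libraries.

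Over the 14 class and library sums, some genes followed a member closely. On the scale of log2(CPM + 10), Grem1 was most like Kng2 (Pearson r = 1.00) and C6 (r = 1.00), and Bmp4 most like Kirrel (0.94) and Zeb2 (0.92). The Grem1 values rest mostly on the Lepr+ and P-SSC-like sums, since Grem1 had 0 UMIs in both libraries of 4 other classes. Bmp7 was most like Rhbdl2 (0.94), Bmp3 like Tdrp (0.93), Bmp6 like Limd2 (0.92), Bmp2 like Dusp5 (0.90), Chrdl1 like Nampt (0.89), Gdf10 like Angptl2 (0.88), Bmp5 like Colec12 (0.87), and Nog like Gal3st1 (0.85). These genes are the highest of 9379, the sums of a class share their cell type and those of a library their depth, and the values describe likeness without a test.

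In the GENCODE M21 annotation of GRCm38, the 10 genes lie on 7 chromosomes. Grem1 (113746164 to 113758646, minus strand), Bmp2 (133552159 to 133562885, plus), and Bmp7 (172868012 to 172940321, minus) lie on chromosome 2, and Gdf10 (33923587 to 33937983, plus) and Bmp4 (46383520 to 46390669, minus) on chromosome 14. Bmp3 lies on chromosome 5 (98854415 to 98884396), Bmp5 on chromosome 9 (75775364 to 75900310), and Nog on chromosome 11 (89300638 to 89302332, minus). Bmp6 lies on chromosome 13 (38345107 to 38500302), and Chrdl1 on chromosome X (143285674 to 143394262, minus). All are annotated as protein coding.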

How the data were processed

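The data were UMI counts from 2 libraries of sorted mouse periosteal cells made with the 10x Chromium 3′ v3.1 kit. Per the labels, the authors ran Cell Ranger 6.1.2 on the mm10 build. They deposited raw counts per gene and barcode for each library, without normalization, for 32285 mouse genes and 3 reporter sequences. The annotation is not given in the sources used here. A 3′ count does not scale with transcript length, capture can differ between genes, and reads of near-identical genes may be lost.

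The members and gene lists were chosen with earlier results of these data known. Barcodes with at least 500 genes, at least 500 UMIs, and at most 10% mitochondrial UMIs were kept. Seurat 5.3.0 (R 4.3.3) was used to integrate the libraries (canonical correlation analysis) on 3000 variable genes, 30 anchor dimensions, and 15 principal components, and to cluster at resolution 0.8, and again after 16 hematopoietic clusters of 23 were removed. None of the 73 pathway genes served as a variable gene or stood in the 22 marker lists. A marker counted at a log2 fold of at least 1 with 10 CPM added and a UMI in at least 20% of cells. A class name needed at least 3 markers and 50% of its list. No doublet caller was run. B cell marker-bearing (11 and 26) and skeletal muscle-like cells (69 and 63) did not enter the tests.

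UMIs summed per library and class (14 sums, 7 classes) were tested with edgeR 4.0.16 (TMM, filterByExpr, quasi-likelihood with bias adjustment, two-sided, Benjamini-Hochberg, threshold 0.05), which was tried on simulated counts first. Alternatives were DESeq2 1.42.0, its size factors, no filter, no bias adjustment, a replicate block, other clusterings, and single libraries. Sums with the same number come from the same library, so the numbers pair them, and 20 of 21 correlations of same-library deviations were above 0.1 (lowest 0.0838, median 0.266). Levels are CPM of the sums without TMM factors, so their order can differ from that of the fitted differences. Levels carry exact Poisson and shares exact binomial 95% intervals, and a count of 0 was bounded by 3 counts. Intervals cover counting error only. Of each pathway list, the text names from the 2 genes with the largest change per direction, and for likeness the 2 highest correlations. Cluster leaders, EGFP, tdTomato, and Adipoq were named after their values were seen. Positions came from GENCODE M21, which held 32235 of the 32285 identifiers, and promoters from RefSeq. Sequences of the other 5 members were not used here.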

Additional observations from a re-analysis of the deposited data

Results flagged for a closer look

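Reporter sequences were outside the measurement of the members, and they drew attention because the labels call both libraries WT. EGFP had 6837 UMIs in the kept cells of library 2 and 0 in those of library 1, and 6833 of the 6837 lay in stromal cells. The tdTomato sequence had 1482 UMIs in library 1 and 4627 in library 2. No control library without a reporter was analysed here. In library 2, cells without an EGFP UMI gave 64.7 CPM of Bmp2 in Tcim-led cells, where all cells gave 136 CPM, and 50.6 CPM of Nog in chondrocyte-like cells, where all cells gave 63.2 CPM. The origin of the reporters was not tested.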

How the results depend on the processing

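Of the 27 calls of single members, the higher calls of Bmp2, Bmp3, Bmp5, Bmp6, Gdf10, Nog, and Chrdl1, of Bmp4 in Lepr+ and of Bmp7 in chondrocyte-like cells, and the lower call of Nog in osteoblast-like cells held in every alternative that gave a test. Lower calls rested on few UMIs and were lost most often. The count of members lower in Col10a1-led and in Lepr+ stromal-like cells, 1 each, became 0 with DESeq2, without bias adjustment, at resolution 0.4, and with skeletal muscle-like cells included. In Gm26917-led cells it went from 1 to 0 with DESeq2, without bias adjustment, at resolution 1.2, without integration, and with muscle cells. In chondrocyte-like cells it went from 1 to 2 with DESeq2, without the filter, at resolution 1.2, without integration, and with named classes only, and to 0 with muscle cells. In Tcim-led cells it went from 2 to 1 without integration, with muscle cells, and without P-SSC-like cells that had an Adipoq UMI, and in osteoblast-like cells from 3 to 1 with muscle cells. Members higher went from 1 to 2 in Col10a1-led and from 0 to 3 in Gm26917-led cells without integration, and from 3 to 1 in P-SSC-like cells with named classes only. Genes called went from 952 to 1503 (Gm26917-led) and from 1212 to 1842 (osteoblast-like) without the filter, and from 952 to 1833 in Gm26917-led cells without integration. The causes were not tested.

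The replicate block, in which library number is a term of the model, changed no call of a member and moved the genes called in Tcim-led cells from 1675 to 2533. Differences between neighbouring classes turned in single libraries. Without replicate 1 and without replicate 2, Bmp4 in Lepr+ against P-SSC-like cells was -0.15 and 2.23, and Chrdl1 in Lepr+ against chondrocyte-like cells -0.92 and 0.54. Bmp7 in chondrocyte-like against Gm26917-led cells was 1.63 and -0.027, and Gdf10 in P-SSC-like against chondrocyte-like cells 1.11 and -1.54. The last was -2.11 without integration, where the P-SSC-like class was not made up of the same cells. With 1 library left there is no test. The Lepr+ class could not be fitted at resolution 1.2 or without integration, since library 2 then held under 10 of its cells. The named-classes model and the model without P-SSC-like cells that had an Adipoq UMI were chosen after seeing the data. So were the finer Lepr+ clusters and the levels in cells without an EGFP UMI, for which no model was fitted. Depth limits Lepr+ values of library 2, where 1 UMI is worth more CPM than in every other class sum of the tests except that of Gm26917-led cells in library 1.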
